A study of Mus musculus with 15 samples.

Results

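The genes described here encode 10 regulators of G protein signalling: Rgs1, Rgs2, Rgs3, Rgs4, Rgs7, Rgs8, Rgs9, Rgs10, Rgs16 and Rgs17. They were taken as every array probe whose gene name in the scanner files is one of these symbols, which gave 19 probes, and all 19 passed the filter on dim probes. The 10 genes are part of 27431 genes and unnamed transcripts tested. The samples are olfactory bulbs of 15 male mice aged 6 to 8 weeks, 5 in each of 3 groups, on 1-colour Agilent arrays with 1 array per sample. All bulbs received 500 nL of an adeno-associated virus (AAV), and total bulb RNA was taken 2 weeks later. The virus carries a flex cassette, which is read only in cells that contain Cre recombinase.

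The CA bulbs (CRHR-Cre;AAV-flex (CA)CRHR, strain C57Bl/6) received a constitutively active form of CRHR1, the receptor for corticotropin-releasing hormone, in granule cells that express CRHR1. Granule cells are inhibitory interneurons and make up most neurons of the bulb. The KO bulbs (CRHR1-/- KO;AAV-flex GFP, strain 129S4/SvJae) lacked CRHR1 and received a virus for green fluorescent protein (GFP). The Cre GFP bulbs (CRHR-Cre;AAV-flex GFP, strain C57Bl/6) had the same Cre line as the CA bulbs and received the GFP virus, and they serve as the control of both. The sample titles of the KO bulbs name no Cre. Loss of the receptor, strain, and the presence of Cre cannot be told apart in a comparison that includes the KO bulbs. All 5 CA arrays were on slide 2 with Cre GFP arrays 4 and 5. All 5 KO arrays were on slide 1 with the other 3 Cre GFP arrays, so the CA and KO bulbs share no slide.

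A receptor coupled to G proteins loads GTP onto the alpha subunit of its G protein, and the signal ends when the alpha subunit hydrolyses that GTP. RGS proteins speed up this hydrolysis and so shorten the signal. Most of them act on alpha subunits of the Gi/o and Gq classes, whereas CRHR1 couples mainly to Gs, which raises cAMP. Several Rgs genes are themselves induced or repressed by activity and cAMP in neurons, and in lymphocytes Rgs1 curbs chemokine receptors.

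The probes are 60 bases long, and each reads only the stretch of transcript it matches; its place relative to exons and untranslated regions was not determined here. The probes of Rgs2, Rgs3 and Rgs7 that follow are shown because they hold the same short pattern and still share no long run of bases. Capitals mark the pattern CCNCGNTT, which was chosen after the probe sequences had been read. It is held by 3 of the 19 member probes and by 0.350% of the 55681 probes on the array. All 3 are written 5′ to 3′ from the scanner files.
Rgs2 probe A_55_P2109857 (mm9 chr1:145848830-145848889, minus strand): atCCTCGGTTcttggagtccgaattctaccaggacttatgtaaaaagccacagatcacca
Rgs3 probe A_55_P2027107 (mm9 chr4:62363208-62363267, plus strand): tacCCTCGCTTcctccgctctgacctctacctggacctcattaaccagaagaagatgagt
Rgs7 probe A_55_P2089198 (mm9 chr1:177008321-177008380, minus strand): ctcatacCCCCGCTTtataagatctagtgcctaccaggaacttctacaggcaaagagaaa
The longest run shared by probes of different members was 9 bases, so no pair of members was read by a near-identical probe. Within Rgs9, probes A_55_P1969032 and A_55_P2032232 share a run of 54 bases and are in effect repeat measurements of the same site.

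The results turn most on Rgs4 and Rgs1. The first 30 bases of their probes are given to show where on the transcript the values come from.
Rgs4 probe A_55_P2026738 (mm9 chr1:171672488-171672547, minus strand), first 30 bases: tcatgaactgcaaagccctctttggttttc
Rgs4 probe A_55_P2026734 (mm9 chr1:171671609-171671668, minus strand), first 30 bases: gcttccgacgaaacacacaaatcttaatga
Rgs1 probe A_51_P260683 (mm9 chr1:146091962-146092021, minus strand), first 30 bases: cccttggataaccagtccaaaagtatatag
The 2 Rgs4 probes match separate stretches of the same RefSeq transcript, so they give 2 readings of the same gene on each array.

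Levels are log2 signals minus the 75th percentile of the same array, which was between 664 and 1171 signal units. A level can be compared between arrays but not between probes. The share of probes well above background was 58.7% to 66.9% per array. All 10 granule cell markers listed for the tissue check were well above background in each group, with a mean level between 5.01 and 5.55 over the 15 arrays. Crhr1 was 0.47 ± 0.09 lower in KO than in Cre GFP bulbs (adjusted p = 0.0140, limma) and stayed above background on all 5 KO arrays; whether its probe lies in the deleted part of the gene was not determined. It differed by 0.09 ± 0.09 between CA and Cre GFP bulbs (adjusted p = 0.547). Differences are given ± SE, and adjusted p values are those of limma over all 27431 tested features with 0.05 as the threshold. For the further probes of a gene, which did not represent it, they come from a fit of all 33965 kept probes and are adjusted over those. In bulk tissue, fewer cells of a type and less RNA per cell cannot be told apart.

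Of the 10 genes, 5 passed the test between CA and Cre GFP bulbs: Rgs1 was higher, and Rgs3, Rgs4, Rgs8 and Rgs17 were lower. Rgs1 passed the filter on dim probes only through the CA bulbs, the group where it was high. The same limit holds for its call between CA and KO bulbs below. Of all tested features 8.53% passed, 3.89% higher and 4.64% lower. Between KO and Cre GFP bulbs 2 of the 10 passed, Rgs7 and Rgs9, both lower, beside 3.38% of all features, with 1.95% higher and 1.43% lower. Between CA and KO bulbs 5 of the 10 passed: Rgs1 and Rgs9 were higher and Rgs2, Rgs4 and Rgs17 were lower, beside 25.7% of all features (9.43% higher, 16.3% lower). The comparisons of CA and of KO bulbs with Cre GFP bulbs share their 5 control arrays, and the comparison of CA with KO bulbs is the difference of the other two.
The median difference of the 10 genes was -0.16 between CA and Cre GFP bulbs, against -0.07 over all features. Between KO and Cre GFP bulbs both medians were close to 0, at 0.0056 for the 10 genes and 0.0037 over all features, and between CA and KO bulbs they were -0.17 and -0.07. The balance of all calls depended on how arrays were centred. Among all calls between CA and Cre GFP bulbs 45.6% were higher, or 56.0% with arrays centred on their median; between KO and Cre GFP bulbs 57.8% were higher, or 33.2%; and between CA and KO bulbs 36.6% were higher, or 48.2%.
With slide as a block, CA and KO bulbs are each compared with the Cre GFP arrays of their own slide. The difference between CA and KO bulbs is then indirect, through those Cre GFP arrays. With this block 2 of the 10 genes passed between CA and Cre GFP bulbs (Rgs1 and Rgs4) and 1 between KO and Cre GFP bulbs (Rgs9). Between CA and KO bulbs 2 passed (Rgs4 and Rgs9).

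**Figure D1:**
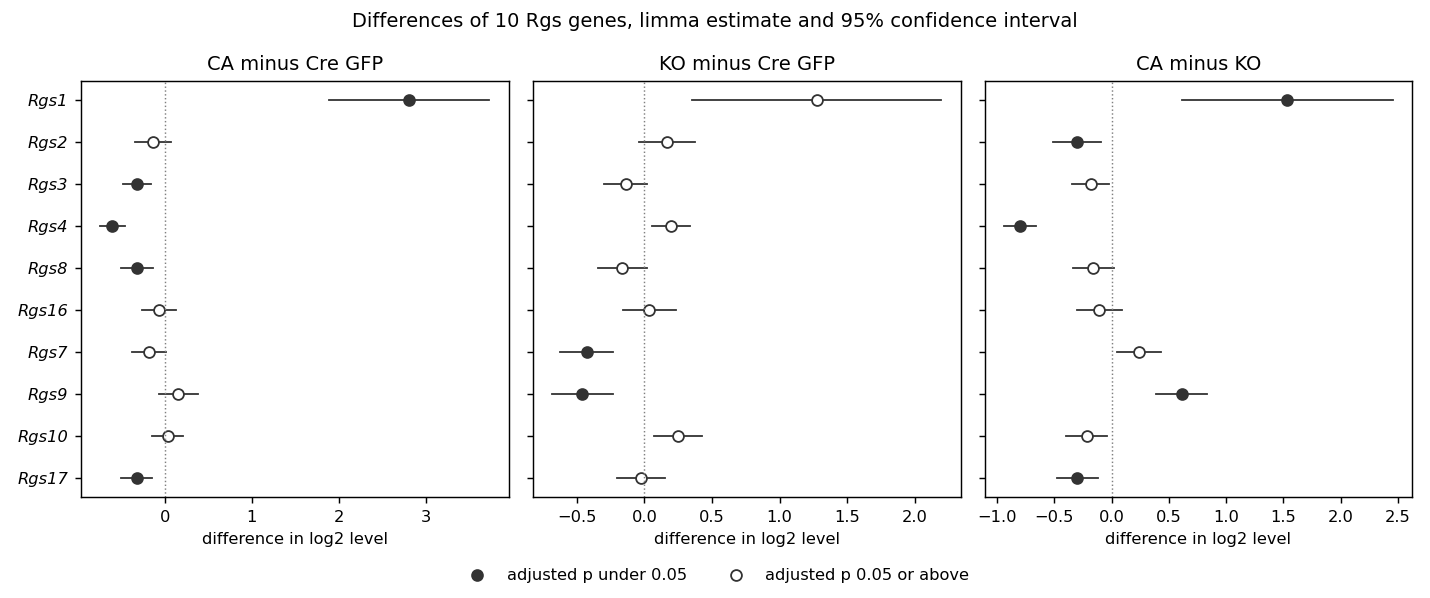
Differences in log2 level between groups for the 10 Rgs genes (x axis, with 95% confidence intervals; 1 row per gene), in 3 panels: CA minus Cre GFP, KO minus Cre GFP and CA minus KO. Filled points have an adjusted p under 0.05. Rgs4 stands left of 0 wherever CA bulbs are compared, at -0.60 and -0.80, and the estimate of 2.81 for Rgs1 rests on Cre GFP arrays that were all below background.

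Rgs4 showed the clearest separation of the CA bulbs. Rgs4 belongs to the R4 subfamily of small RGS proteins, acts on Gi/o and Gq, and is abundant in forebrain neurons. Its probe A_55_P2026738 had levels of 1.78, 1.82, 1.69, 1.68 and 1.60 in CA bulbs, 2.58, 2.43, 2.41, 2.58 and 2.57 in KO bulbs, and 2.20, 2.31, 2.39, 2.27 and 2.42 in Cre GFP bulbs. All 5 CA arrays lay below all 10 others, while the KO and Cre GFP arrays overlapped. Rgs4 was 1.52-fold lower in CA than in Cre GFP bulbs (difference -0.60 ± 0.06, adjusted p = 0.000246) and 1.74-fold lower in CA than in KO bulbs (difference -0.80 ± 0.06, adjusted p = 1.27e-05). Between KO and Cre GFP bulbs it differed by 0.20 ± 0.06, which did not pass (adjusted p = 0.113).
The second Rgs4 probe, A_55_P2026734, gave -0.82 ± 0.11 between CA and Cre GFP bulbs (adjusted p = 0.000639), -0.76 ± 0.11 between CA and KO bulbs (adjusted p = 0.000715) and -0.06 ± 0.11 between KO and Cre GFP bulbs (adjusted p = 0.797). The probes thus gave the same calls, and over the 15 arrays their levels had a Pearson r of 0.912. Within slide 2 the difference between CA and Cre GFP bulbs was -0.63 (adjusted p = 0.0405 in arrays of that slide alone, 0.00266 with slide as a block).

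Markers of neurons and of oligodendrocytes moved in the same bulbs. Between CA and Cre GFP bulbs 3 of 10 granule cell markers fell: Meis2 by 0.30, Pcp4 by 0.47 and Etv1 by 0.26. The mean level of the 10 markers was 5.01 to 5.26 on CA arrays, 5.20 to 5.49 on KO arrays and 5.31 to 5.55 on Cre GFP arrays. Of the 5 tested markers of cortical and anterior olfactory neurons 2 fell, Neurod2 by 0.73 and Tbr1 by 0.49, and the mean level of the 5 was -1.01 to -0.84 on CA arrays, -0.53 to 0.03 on KO arrays and -0.62 to -0.13 on Cre GFP arrays. Of 5 oligodendrocyte markers Mobp fell between CA and Cre GFP bulbs, by 0.82, and 4 were lower in CA than in KO bulbs. Their mean level was 2.38 to 2.97 on CA arrays, 2.98 to 3.45 on KO arrays and 2.92 to 3.35 on Cre GFP arrays, so every CA array lay below every KO array, while the CA and Cre GFP ranges met at their ends. Of 7 mitral and tufted cell markers 0 passed after adjustment in limma and 1 had an unadjusted p under 0.05. The part of these cell types in the Rgs4 difference was not tested.

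Rgs1 was the member that rose in CA bulbs. Rgs1 is another R4 protein, best known from B and T lymphocytes and also found in microglia. Its levels were -3.61, -5.76, -5.07, -4.36 and -4.45 in CA bulbs, -6.31, -6.09, -6.07, -6.54 and -5.93 in KO bulbs, and -8.47, -6.13, -7.79, -6.89 and -8.05 in Cre GFP bulbs. The signal was well above background on 4 of 5 CA arrays and on 0 of 5 arrays in each of the KO and Cre GFP groups, so only bounds can be given there. The bound sets the CA mean against a floor on each dim array, namely the faintest signal that still counted as well above background there, or the probe's measured signal where that was brighter. Rgs1 was at least 2.48-fold higher in CA than in Cre GFP bulbs and at least 2.14-fold higher in CA than in KO bulbs. These bounds were not tested. The limma fit used the measured levels, including those not above background. It gave log2 differences of 2.81 from Cre GFP bulbs (adjusted p = 0.00120) and 1.54 from KO bulbs (adjusted p = 0.0214). With normexp background correction, whose offset of 50 compresses dim signals by construction, the log2 difference was 0.58 from Cre GFP bulbs (adjusted p = 0.00692) and 0.28 from KO bulbs (adjusted p = 0.0765), so the size of the rise depends on how dim signal is treated and both values lie below the bounds above. The difference from Cre GFP bulbs kept its call with slide as a block (adjusted p = 0.0199) but not in arrays of slide 2 alone (adjusted p = 0.0667). The difference from KO bulbs lost it with slide as a block (adjusted p = 0.247), with the replicate number as a block (adjusted p = 0.0509), without KO array 4 and without CA array 1.

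Some markers of immune cells were also higher in CA than in Cre GFP bulbs. Of 8 tested T cell markers 5 were higher in CA than in Cre GFP bulbs and 0 lower. Cd3d, a subunit of the T cell receptor complex, was higher by 2.80 ± 0.62 (adjusted p = 0.0140), Cd2 by 2.32 ± 0.51 (adjusted p = 0.0131) and Cd5 by 1.79 ± 0.42 (adjusted p = 0.0175), and Lck and Cd3g were the others. The mean level of the 8 was -2.66 to -1.01 on CA arrays, -2.96 to -2.10 on KO arrays and -3.27 to -1.95 on Cre GFP arrays, and Cd8a was too dim to be tested. Of 9 microglia markers 3 were higher (Aif1, Tmem119 and Csf1r) and Fcrls was lower, with mean levels of 2.37 to 2.67 on CA, 2.33 to 2.50 on KO and 2.15 to 2.47 on Cre GFP arrays. Of the 3 tested B cell markers, Cd79b was higher in CA bulbs by 0.88, while the defining B cell genes Ms4a1 and Pax5 were too dim to be tested. Of 5 markers of monocytes and neutrophils 2 were higher, Plac8 by 3.30 and Ccr2, which was below background on every Cre GFP array. Set against KO bulbs, CA bulbs were higher in 2 of 8 T cell markers (Cd3d and Cd5) and in 1 of 9 microglia markers (Aif1), and lower in 3 microglia markers. Of 3 measured B cell markers 0 passed in limma, and 0 had an unadjusted p under 0.05. Of 5 markers of monocytes and neutrophils Plac8 was higher, while the median difference of the 5 was -0.96. The part of these cells in the Rgs1 differences was not tested.

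**Figure D2:**
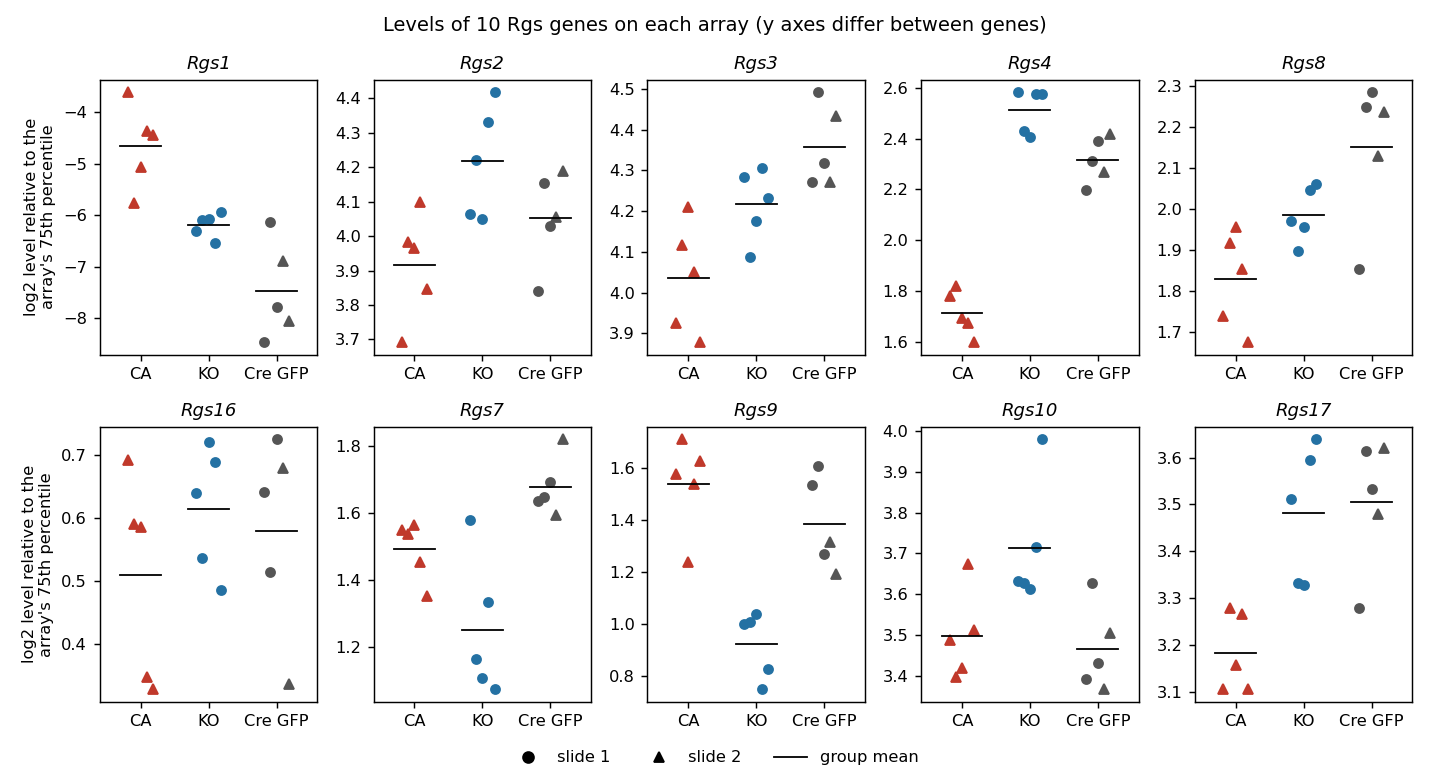
Levels of the 10 Rgs genes (y axis, log2 signal relative to the array's 75th percentile; scales differ between panels) on each of 5 CA, 5 KO and 5 Cre GFP arrays (x axis). Circles are arrays of slide 1, triangles arrays of slide 2 and bars group means. The Rgs4 panel shows the CA arrays between 1.60 and 1.82, below all others, and the Rgs9 panel shows the KO arrays between 0.75 and 1.04, also below all others.

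Other R4 members were lower in CA than in Cre GFP bulbs by smaller amounts. Rgs3, a longer R4 protein with several isoforms, had levels of 3.92, 4.12, 4.21, 4.05 and 3.88 in CA bulbs, 4.28, 4.09, 4.18, 4.31 and 4.23 in KO bulbs, and 4.27, 4.49, 4.32, 4.27 and 4.43 in Cre GFP bulbs (probe A_55_P2027102, mm9 chr4:62363993-62364052). The CA arrays lay below all Cre GFP arrays but overlapped the KO arrays. The difference between CA and Cre GFP bulbs was -0.32 ± 0.08 (adjusted p = 0.0183), that between KO and Cre GFP bulbs -0.14 ± 0.08 (adjusted p = 0.320) and that between CA and KO bulbs -0.18 ± 0.08 (adjusted p = 0.0862).
The other Rgs3 probes did not all give this picture. Probe A_55_P2027107, printed above, gave -0.16 ± 0.08 between CA and Cre GFP bulbs (adjusted p = 0.199). Probe A_55_P2027117, on transcript NM_019492, gave -0.21 ± 0.07 for that comparison (adjusted p = 0.0942) and -0.37 ± 0.07 between CA and KO bulbs, which passed (adjusted p = 0.00423). Probe A_55_P2027112 was above background on 5 of 5 CA, 2 of 5 KO and 5 of 5 Cre GFP arrays. It gave 0.99 ± 0.45 between CA and KO bulbs (adjusted p = 0.113), opposite in sign to the other Rgs3 probes, and none of its differences passed. Over the 15 arrays the Pearson r between probe pairs of Rgs3 ran from -0.581 to 0.746.

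Rgs8, an R4 protein of neurons that is strongly expressed in cerebellar Purkinje cells, had levels of 1.74, 1.92, 1.96, 1.85 and 1.68 in CA bulbs, 1.97, 1.90, 1.96, 2.05 and 2.06 in KO bulbs, and 1.85, 2.25, 2.29, 2.13 and 2.24 in Cre GFP bulbs (probe A_55_P2004861, mm9 chr1:155544738-155544795). The CA arrays and Cre GFP array 1 overlapped, and the other 4 Cre GFP arrays lay above all CA arrays. The difference between CA and Cre GFP bulbs was -0.32 ± 0.08 (adjusted p = 0.0319), and a second probe of the same transcript, A_52_P635598, gave -0.05 ± 0.10 (adjusted p = 0.796). Between KO and Cre GFP bulbs the difference was -0.16 ± 0.08 (adjusted p = 0.302) and between CA and KO bulbs -0.16 ± 0.08 (adjusted p = 0.172).

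Rgs2, an R4 protein that acts mainly on Gq and is an early response gene in neurons, had levels of 3.69, 3.98, 3.97, 4.10 and 3.85 in CA bulbs, 4.06, 4.22, 4.05, 4.33 and 4.42 in KO bulbs, and 3.84, 4.15, 4.03, 4.05 and 4.19 in Cre GFP bulbs. All 3 groups overlapped. Rgs2 passed only between CA and KO bulbs (-0.30 ± 0.10, adjusted p = 0.0367), and its second probe gave -0.24 ± 0.12 there (adjusted p = 0.147).
Rgs16, an R4 protein whose gene neighbours Rgs8 on chromosome 1 (probe A_51_P249286, mm9 chr1:155592244-155592303), passed in no comparison as processed here. With slide as a block its difference between CA and KO bulbs was 0.0123 and did not pass either (limma adjusted p = 0.967). Its levels lay between 0.33 and 0.69 in CA bulbs, 0.49 and 0.72 in KO bulbs, and 0.34 and 0.73 in Cre GFP bulbs. The 95% interval of its difference was -0.27 to 0.13 between CA and Cre GFP bulbs and -0.16 to 0.23 between KO and Cre GFP bulbs.

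Rgs17 belongs to the RZ subfamily, whose members act on Gz and other Gi class alpha subunits. Its levels were 3.11, 3.28, 3.16, 3.27 and 3.11 in CA bulbs, 3.51, 3.33, 3.33, 3.60 and 3.64 in KO bulbs, and 3.28, 3.61, 3.53, 3.48 and 3.62 in Cre GFP bulbs (probe A_55_P2176145, mm9 chr10:4513546-4513605). All CA arrays lay below all others, though CA array 2 and Cre GFP array 1 were nearly level. Rgs17 was 1.25-fold lower in CA than in Cre GFP bulbs (-0.32 ± 0.08, adjusted p = 0.0297) and 1.23-fold lower in CA than in KO bulbs (-0.30 ± 0.08, adjusted p = 0.0214). The difference between KO and Cre GFP bulbs was -0.02 ± 0.08 (adjusted p = 0.905).
The calls between CA and Cre GFP bulbs of Rgs3, Rgs8 and Rgs17 were lost with arrays centred on their median and with slide as a block. Leaving out 1 array ended them in 3, 7 and 7 of 15 cases for Rgs3, Rgs8 and Rgs17, and the arrays concerned are named in the closing section.

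Rgs7 and Rgs9 were lower in KO bulbs. Both belong to the R7 subfamily, whose proteins are stable only in a complex with the beta subunit Gnb5; Rgs9 has a retinal and a striatal splice form, and Rgs7 is widely expressed in the brain. Rgs9 had levels of 1.58, 1.71, 1.24, 1.54 and 1.63 in CA bulbs, 1.00, 1.01, 1.04, 0.75 and 0.83 in KO bulbs, and 1.54, 1.61, 1.27, 1.31 and 1.19 in Cre GFP bulbs (probe A_55_P2032232, mm9 chr11:109086669-109086728). All KO arrays lay below all others, and the CA and Cre GFP arrays overlapped. Rgs9 was 1.38-fold lower in KO than in Cre GFP bulbs (-0.46 ± 0.10, adjusted p = 0.0294) and 1.53-fold higher in CA than in KO bulbs (0.61 ± 0.10, adjusted p = 0.00175), while the difference between CA and Cre GFP bulbs was 0.15 ± 0.10 (adjusted p = 0.352).
The overlapping probe A_55_P1969032 gave -0.48 ± 0.09 between KO and Cre GFP bulbs (adjusted p = 0.0143). The remaining Rgs9 probes, on other annotated transcripts, gave -0.20 ± 0.09 (A_55_P1969027, adjusted p = 0.245) and -0.17 ± 0.11 (A_66_P140185, adjusted p = 0.408), neither of which passed. Between CA and KO bulbs the overlapping probe gave 0.64 ± 0.09 and passed (limma adjusted p = 0.000742). The remaining probes gave 0.21 ± 0.09 (A_55_P1969027, adjusted p = 0.107) and 0.20 ± 0.11 (A_66_P140185, adjusted p = 0.181) there and did not pass. With slide as a block the difference of probe A_55_P2032232 between KO and Cre GFP bulbs was -0.55 (adjusted p = 0.0368). It missed the threshold in arrays of slide 1 alone (adjusted p = 0.107) and without KO array 4 or 5 or without Cre GFP array 1, 2 or 4.

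Rgs7 had levels of 1.55, 1.54, 1.56, 1.45 and 1.35 in CA bulbs, 1.58, 1.16, 1.11, 1.33 and 1.07 in KO bulbs, and 1.64, 1.65, 1.69, 1.59 and 1.82 in Cre GFP bulbs. KO array 1 was close to the Cre GFP arrays and the other 4 KO arrays were clearly lower. Rgs7 was 1.34-fold lower in KO than in Cre GFP bulbs (-0.43 ± 0.09, adjusted p = 0.0226), but it did not pass with slide as a block (-0.41, adjusted p = 0.0882), with arrays centred on their median, without KO array 2 and without Cre GFP array 3. All CA arrays also lay below all Cre GFP arrays, but the difference of -0.19 ± 0.09 did not pass (adjusted p = 0.201). Between CA and KO bulbs it was 0.24 ± 0.09 (adjusted p = 0.0647).
Of 8 markers of striatal and olfactory tubercle neurons, cells in which Rgs9 is abundant, 2 fell in KO bulbs, Pde10a by 0.47 and Gpr6 by 0.41. The same markers fell in CA bulbs, Pde10a by 0.63 and Gpr6 by 0.71, whereas Rgs9 did not pass there. The mean level of the 8 was -1.06 to -0.92 on CA arrays, -0.82 to -0.69 on KO arrays and -0.76 to -0.56 on Cre GFP arrays. The part of such cells in the Rgs9 difference was not tested.

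Rgs10, a small RGS protein of the R12 subfamily that is abundant in microglia and neurons (probe A_51_P218774, mm9 chr7:135517256-135517315), passed in no comparison as processed here. Its levels were 3.40 to 3.68 in CA bulbs, 3.61 to 3.98 in KO bulbs and 3.37 to 3.63 in Cre GFP bulbs, so that the KO arrays overlapped both other groups at their lower end. The differences were 0.25 ± 0.08 between KO and Cre GFP bulbs (adjusted p = 0.115), 0.03 ± 0.08 between CA and Cre GFP bulbs (adjusted p = 0.823) and -0.22 ± 0.08 between CA and KO bulbs (adjusted p = 0.0670). Under other settings some of these passed. That between KO and Cre GFP bulbs did so with quantile normalization (adjusted p = 0.0308). That between CA and KO bulbs did so with normexp (0.0374), an intensity trend (0.0477), slide as a random block (0.0220) and without CA array 4 (0.0407). The random block estimated a correlation within slides of -0.057. With slide as a block in limma the difference between CA and KO bulbs did not pass (adjusted p = 0.489).

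Groups that did not overlap on any array were counted without a test. Between CA and Cre GFP bulbs this held for 5 of the 10 genes (Rgs1 higher; Rgs3, Rgs4, Rgs7 and Rgs17 lower), of which Rgs1 rests on control values that were not above background, and for 10.5% of all features, 3.27% higher and 7.24% lower. Between KO and Cre GFP bulbs it held for Rgs7 and Rgs9, both lower, and for 5.54% of all features, 3.1% higher and 2.44% lower. Between CA and KO bulbs it held for Rgs1, with the same limit in KO bulbs, and Rgs9, which were higher, and Rgs4 and Rgs17, which were lower, and for 18.7% of all features, 6.85% higher and 11.8% lower. The Rgs1 probe passed the filter on dim probes only through the CA bulbs, where it was well above background on 4 of 5 arrays.

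**Figure D3:**
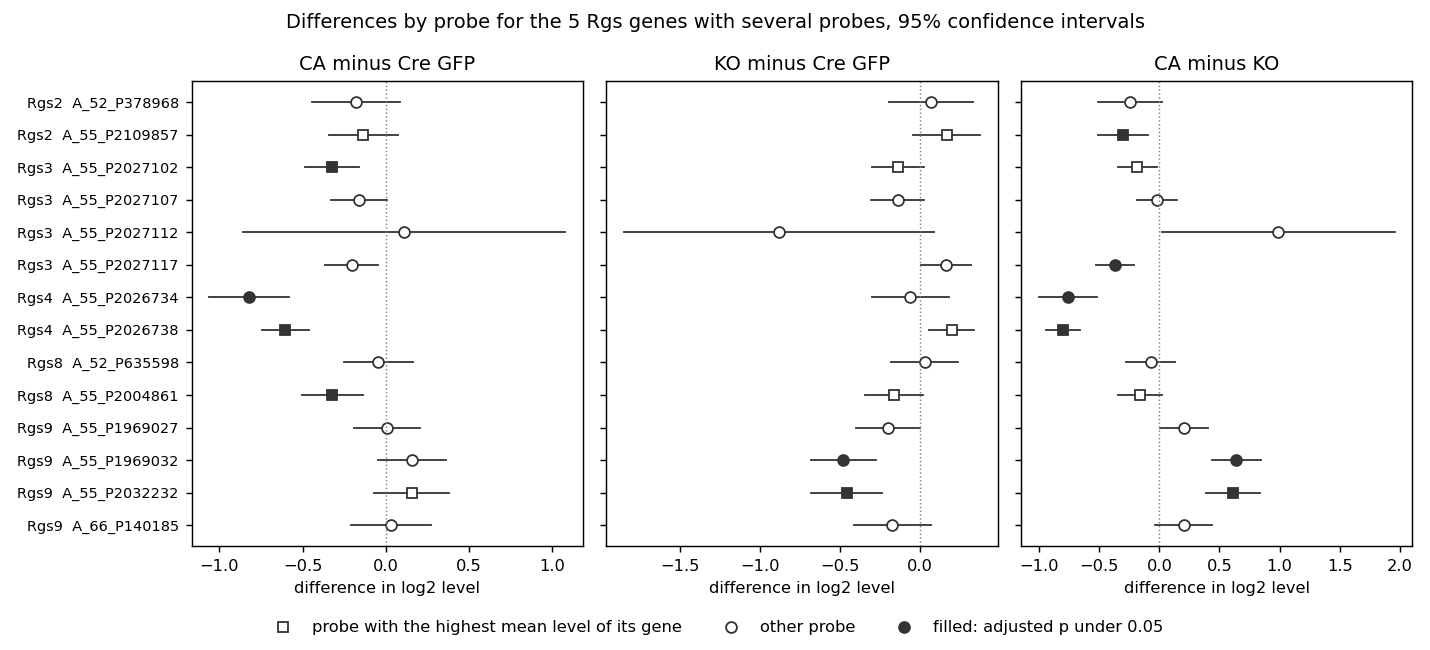
Differences in log2 level (x axis, 95% confidence intervals) for every probe (rows) of the 5 Rgs genes with more than 1 probe, in 3 panels: CA minus Cre GFP, KO minus Cre GFP and CA minus KO. Squares are the probes with the highest mean level of their gene, circles the others, and filled symbols have an adjusted p under 0.05. Both Rgs4 probes are filled and left of 0 wherever CA bulbs are compared, while the 2 Rgs8 probes lie at -0.32 and -0.05 in the first panel.

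Several members rose and fell together from array to array. Over the 15 arrays Rgs3 and Rgs8 had a Pearson r of 0.887, Rgs8 and Rgs17 0.850, and Rgs4 and Rgs17 0.840; with group means taken out the values were 0.727, 0.792 and 0.750. Rgs4 and Rgs9 ran opposite, with r = -0.753, or -0.336 with group means taken out. These values describe arrays that share slides and scaling. Among 16544 genes with a symbol, the profile most like that of Rgs4 was Car2, carbonic anhydrase 2 (r = 0.968), followed by Slc24a3 (0.964) and Anp32e (0.959). With group means taken out, r with Rgs4 was 0.841 for Car2, 0.570 for Slc24a3 and 0.429 for Anp32e. The profile most like that of Rgs17 was Fam171b (0.975). None is given for Rgs1, whose signal was well above background on 4 of 15 arrays. For Rgs9 it was Zfp383 (0.937) and for Rgs7 Tedc2 (0.898).

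Promoter sequence of 9 of the 10 genes, all but Rgs1, was found in the RefSeq table (GRCm38.p6), in 12 windows because Rgs3 and Rgs8 have several starts. The 250 bases before each start were searched on both strands for the cAMP response element TGACGTCA, the site of the cAMP-activated factor CREB, and for its core TGACG, which also lies inside the full element. The full element was in 0 of the 12 windows and in 1.55% of 32851 promoter windows of all genes. The core was in 3 of the 12, 1 each of Rgs2, Rgs4 and Rgs8, and in 17.8% of all windows. The windows of Rgs4 and Rgs2 are printed because each holds 2 matches of the core, in capitals, although Rgs4 differed between CA and Cre GFP bulbs and Rgs2 did not pass there.
Rgs4 (GRCm38.p6 chr1:169747643-169747892, minus strand): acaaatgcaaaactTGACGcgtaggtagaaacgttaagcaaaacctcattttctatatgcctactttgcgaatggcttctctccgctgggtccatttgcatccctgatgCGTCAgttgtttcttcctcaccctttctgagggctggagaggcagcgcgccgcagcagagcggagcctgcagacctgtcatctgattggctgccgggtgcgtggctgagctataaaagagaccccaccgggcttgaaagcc
Rgs2 (GRCm38.p6 chr1:144004150-144004399, minus strand): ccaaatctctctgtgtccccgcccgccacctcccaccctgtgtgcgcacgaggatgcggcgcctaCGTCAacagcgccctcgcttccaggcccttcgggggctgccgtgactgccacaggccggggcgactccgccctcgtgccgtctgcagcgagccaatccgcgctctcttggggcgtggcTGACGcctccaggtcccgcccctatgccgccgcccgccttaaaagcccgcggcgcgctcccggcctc
In the Rgs4 window the first bases of the matches lie 236 and 141 bases before the start, and in the Rgs2 window 185 and 67. The Rgs8 match lies 46 bases before the start of 1 of its 3 windows. A match is a description of these letters and says nothing on whether a factor binds there.

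Beyond the 10 genes, 7 of 11 other Rgs genes were bright enough to be tested, and 3 of them passed in some comparison. Rgs5, a marker of pericytes and the direct neighbour of Rgs4 on chromosome 1, had a mean level of 1.20 in KO bulbs against 0.17 in Cre GFP bulbs (difference 1.03 ± 0.15, adjusted p = 0.00296), and was 0.95 ± 0.15 lower in CA than in KO bulbs (adjusted p = 0.0012). In the same bulbs 5 of 8 pericyte and mural cell markers rose in KO against Cre GFP bulbs. The mean level of the 8 was -0.46 to -0.14 on KO arrays, -0.65 to -0.32 on CA arrays and -0.89 to -0.62 on Cre GFP arrays. In CA against Cre GFP bulbs 2 of the 8 rose and 0 fell, whereas Rgs5 differed by 0.08 ± 0.15 (limma adjusted p = 0.758). The part of these cells in the Rgs5 difference was not tested. Rgs14, which also binds Gi alpha subunits through a GoLoco motif, was 0.70 ± 0.16 higher in KO than in Cre GFP bulbs (adjusted p = 0.0309) and 0.71 ± 0.16 lower in CA than in Cre GFP bulbs (adjusted p = 0.0164). Rgs12, a larger relative of Rgs14, was 0.38 ± 0.09 lower in CA than in Cre GFP bulbs (adjusted p = 0.0182). The call of Rgs14 between KO and Cre GFP bulbs was lost with arrays centred on their median. Leaving out 1 array ended it in 7 of 15 cases. With slide as a block the differences of Rgs12 and Rgs14 from Cre GFP bulbs no longer passed. That of Rgs5 in KO bulbs did (adjusted p = 0.0159), but not in arrays of slide 1 alone (adjusted p = 0.104), and its difference between CA and KO bulbs did not pass with the block (adjusted p = 0.0880). Rgs14 was 2.67-fold lower in CA than in KO bulbs (-1.42 ± 0.16, adjusted p = 0.000202) and still passed with the block (adjusted p = 0.0318), whereas Rgs12 (-0.53 ± 0.09, adjusted p = 0.00174) did not (adjusted p = 0.0853).

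The partners of the R7 proteins did not pass in either comparison with Cre GFP bulbs. Of the 5 listed (Gnb5, Rgs7bp, Rgs9bp, Gpr158 and Gpr179), 0 were called by limma in KO or CA bulbs against Cre GFP bulbs (2 in KO and 3 in CA bulbs had an unadjusted p under 0.05). Between CA and KO bulbs Gnb5 was 0.43 ± 0.10 lower (adjusted p = 0.0109) and Gpr179, which anchors R7 proteins in retinal cells, 0.47 ± 0.14 higher (adjusted p = 0.0261).
Among the substrates of RGS proteins, 6 of 14 G protein alpha subunits passed between CA and Cre GFP bulbs, 2 higher and 4 lower. Gnai1, a Gi subunit, was lower by 0.28 ± 0.07 (adjusted p = 0.0257), Gna15, a Gq class subunit of blood cells, was higher by 0.59 ± 0.15 (adjusted p = 0.0304), Gnaz was lower by 0.26 ± 0.07 (adjusted p = 0.0376) and Gnaq was lower by 0.32 ± 0.09 (adjusted p = 0.0428). Between KO and Cre GFP bulbs 0 of 14 passed in limma, and 2 had an unadjusted p under 0.05. Of 14 beta and gamma subunits 2 were lower in CA than in Cre GFP bulbs, Gng7 by 0.42 ± 0.11 (adjusted p = 0.0249) and Gng3 by 0.31 ± 0.09 (adjusted p = 0.0455).

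Among the effectors of G proteins, 2 of 9 adenylyl cyclases passed between CA and Cre GFP bulbs. Adcy7, an isoform prominent in blood cells and microglia, was higher by 0.98 ± 0.15 (adjusted p = 0.0012), and the neuronal Adcy1 was lower by 0.46 ± 0.12 (adjusted p = 0.0309). Of 4 phospholipase C beta isoforms, the Gq effectors, Plcb1 was lower by 0.59 ± 0.14 (adjusted p = 0.0188). Of 4 subunits of GIRK channels, potassium channels opened by beta-gamma dimers, Kcnj3 was lower by 0.34 ± 0.08 (adjusted p = 0.0146). In CA relative to KO bulbs, where 25.7% of all features passed, 2 adenylyl cyclases were higher and 4 lower, 3 of 4 GIRK subunits were lower and 1 phospholipase C beta isoform was lower. Of 7 receptor kinases and arrestins 0 passed limma's test between CA and Cre GFP bulbs, and 2 had an unadjusted p under 0.05. The 8 lists together hold 64 tested genes. Of these, 3 were higher and 11 lower in CA than in Cre GFP bulbs, beside 3.89% and 4.64% of all features. In KO against Cre GFP bulbs 2 were higher and 0 lower, beside 1.95% and 1.43% of all features. In CA against KO bulbs 5 were higher and 21 lower, beside 9.43% and 16.3% of all features. The list medians between CA and Cre GFP bulbs ran from -0.22 for the partner proteins to -0.06 for the other Rgs genes, beside -0.07 over all features.

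**Figure D4:**
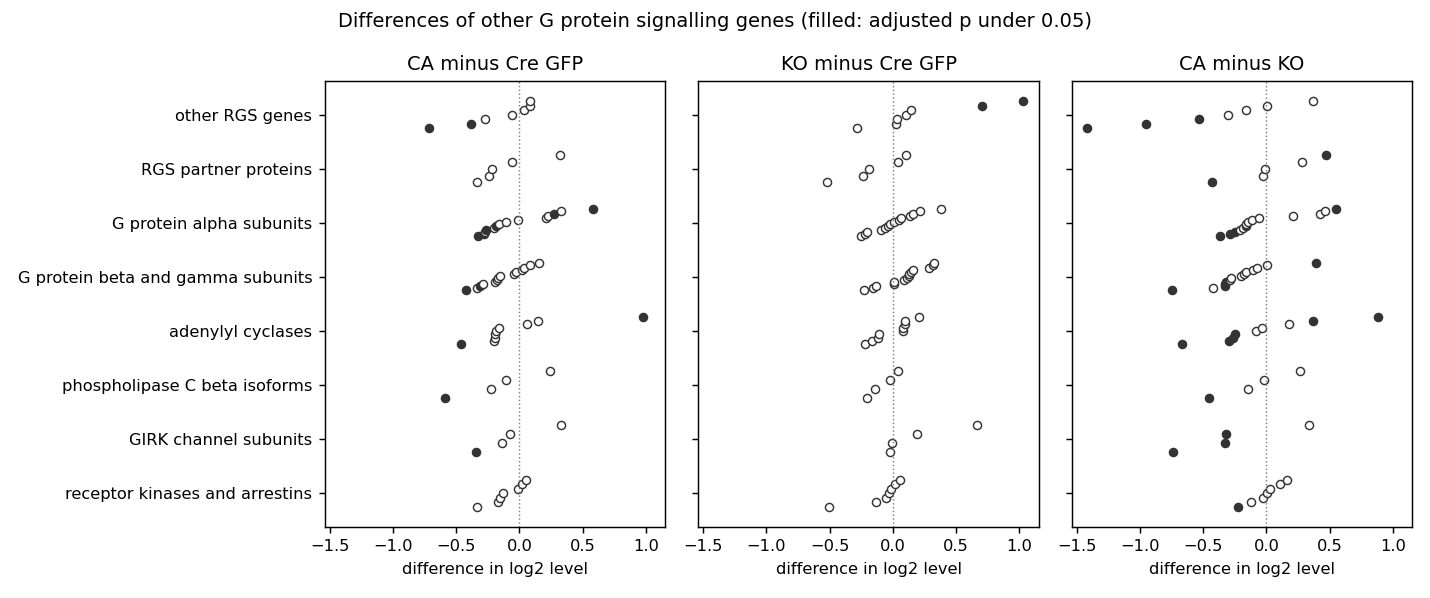
Differences in log2 level (x axis) for 64 other genes of G protein signalling, grouped in 8 lists (rows), in 3 panels: CA minus Cre GFP, KO minus Cre GFP and CA minus KO. Each point is a gene and filled points have an adjusted p under 0.05. In the KO panel only Rgs5 at 1.03 and Rgs14 at 0.70 are filled, and in the CA minus Cre GFP panel 14 points are filled, 11 of them left of 0.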

How the data were processed

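Bulb RNA of 15 mice was measured on 1-colour Agilent arrays with 62976 spots. The deposited scanner files give a background-subtracted intensity per spot, made per the file headers with Agilent Feature Extraction 10.7.3.1 (with detrending within an array). Background flags per spot come from the same program, per the file headers. The authors' value table was found to hold these intensities as a ratio to the array's median over 59305 non-control spots, on a linear scale, with column medians of 0.899 to 0.935. Probe coordinates are mm9, per the file headers.

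Control spots and outlier spots were left out, the 75th percentile of each array was subtracted from the log2 processed intensities, and repeat spots were averaged. Probes well above background on at least 4 of 5 arrays of any group were kept (33965 of 55681), and the brightest of these on average stood for its gene. Gene names came from RefSeq through accessions for 27509 probes. All 15 arrays were fitted together with limma 3.58.1 in R 4.3.3 (Benjamini-Hochberg adjusted p, threshold 0.05). The steps were tested on simulated data. Figures used matplotlib 3.10.9 in Python 3.11.15, with pandas 2.3.3.

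The 10 genes and the gene lists were chosen with earlier results of these data known. Named are the 10 genes with every probe, up to 4 called genes of smallest p per pathway list, the 3 genes most correlated with each called member (for some, only the first or none is given), and markers beside a result. The replicate numbers do not pair the arrays: 3 of 15 correlations of same-numbered deviations exceeded 0.1. Alternatives were quantile and median centring, normexp (offset 50), the authors' values, other filters and probe choices, slide and replicate blocks, and each array left out in turn. Some marker genes are not reported here and were left out of their lists.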

Additional observations from a re-analysis of the deposited data

Results flagged for a closer look

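In each group of 5 arrays, a level was taken to stand apart when its gap to the nearest other array, divided by the range of the group, was above Dixon's 95% critical value of 0.71. Of 57 groups of arrays (19 probes in 3 groups) 3 held such an array, and chance gives about 1 in 20. CA array 2 had a level of 1.34 for Rgs4 probe A_55_P2026734, with the other CA arrays between 1.11 and 1.16, so the array nearest to the Cre GFP level was the one that stood apart. CA array 3 had 1.21 for Rgs9 probe A_55_P1969032, with the other CA arrays between 1.56 and 1.68. KO array 5 had 3.98 for Rgs10, with the other KO arrays between 3.61 and 3.72.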

How the results depend on the processing

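Rgs4 kept its direction and its call in both comparisons of CA bulbs under all alternatives and with each array left out (adjusted p at most 0.0405), and Rgs9 did so between CA and KO bulbs (at most 0.0311). The call of Rgs1 between CA and Cre GFP bulbs was lost in arrays of slide 2 alone and kept in the other settings that tested it. With only probes above background on all arrays, Rgs1 dropped out and was not tested. All calls, with the Rgs members among them in brackets, were 928 (2) between KO and Cre GFP bulbs, 2339 (5) between CA and Cre GFP bulbs and 7059 (5) between CA and KO bulbs. Leaving out 1 array gave 432 to 958 (1 to 2), 1192 to 3671 (2 to 5) and 4176 to 7938 (2 to 6) in that order of comparisons. Slide as a block gave 383 (1), 1018 (2) and 677 (2), arrays of 1 slide 115 (0) and 328 (1), and slide as a random block 10671 (8) between CA and KO bulbs. Median centring gave 404 (1), 1276 (2) and 4284 (3), and the authors' values 459 (1), 1298 (2) and 4416 (3). Without a filter there were 386 (0) for KO and 1246 (2) for CA bulbs against Cre GFP bulbs, and a threshold of 0.01 gave 201 (0), 814 (2) and 2157 (2). KO against Cre GFP bulbs had 1403 calls with quantile normalization, 1433 with array weights and 494 (0) fitted alone; CA against Cre GFP bulbs had 5778 with array weights, and 3 members passed with the mean of a gene's probes. The replicate number as a block, which does not pair these arrays, gave 558 (1) calls for KO and 1552 (2) for CA against Cre GFP bulbs and 6019 (4) between CA and KO bulbs, with 515, 1468 and 5660 shared with the fit without it; 2 of 15 arrays correlated best with their own number.

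The share of higher calls moved with scaling: it was 45.6% between CA and Cre GFP bulbs, or 53.1% with the authors' values; 57.8% between KO and Cre GFP bulbs, or 33.6%, and 68.2% with normexp; and 36.6% between CA and KO bulbs, or 47.9%, and 25.2% with normexp. Centring on the median shifted differences by -0.055, -0.097 and -0.042 (KO against Cre GFP, CA against Cre GFP, CA against KO).

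Some differences changed sign, mostly near 0. Rgs16 between KO and Cre GFP bulbs was -0.0199 with median centring, -0.0122 within slide 1 or with slide as a block, and -0.0255 to 0.0711 with 1 array left out. Rgs17 there was 0.0064 within slide 1 or with slide as a block and -0.0802 to 0.0145 with 1 array left out. Between CA and Cre GFP bulbs Rgs10 was -0.0629 with median centring and with the authors' values and -0.0099 to 0.0746 with 1 array left out, and Rgs16 was 0.000143 within slide 2 or with slide as a block. Between CA and KO bulbs Rgs16 was 0.0123 with slide as a block, Rgs3 was 0.106 with the mean of its probes, which disagree, Gnas was 0.0684 with quantile normalization and Gnb3 was -0.0211 with normexp. Their causes were not tested.

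Between CA and Cre GFP bulbs the call of Rgs3 was lost without Cre GFP array 5 or CA array 1 or 5, that of Rgs8 without Cre GFP array 2, 3, 4 or 5 or CA array 1, 4 or 5, and that of Rgs17 without Cre GFP array 2, 3, 4 or 5 or CA array 1, 3 or 5; their adjusted p was then at most 0.0576, 0.0879 and 0.0826. Between CA and KO bulbs Rgs2 lost its call in 7 of 15 cases and Rgs17 in 3 (without KO array 4 or CA array 1 or 5). The number of arrays limits precision, and signal near background limits Rgs1.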
